A study of Mus musculus with 816 samples.

Results

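The 7 genes described here encode or control the mouse major histocompatibility complex (MHC) class II antigen presentation machinery, and they were chosen by name and not by any measured value. They are H2-Aa, H2-Ab1, H2-Eb1, H2-DMa, H2-DMb1, Cd74 and Ciita, 7 of the 45581 genes listed for 784 cultures of microglia and of the 29858 genes listed for microglia from 32 mice. The cultures were commercial primary neonatal mouse microglia kept in 96-well plates and given a stimulus 4 days after plating, and 783 of them fell into 97 groups by stimulus and time (4, 24 or 72 h), while the labels gave 1 culture no group. The mice were C57BL/6: 4 females of 2 months given 2 mg/kg lipopolysaccharide (LPS) intraperitoneally and 4 given phosphate-buffered saline (PBS), both taken at 4 h, and males, 11 of 2 months and 13 of 22 months. The header of their values names every mouse vehicle, and the paper states no treatment of the males. CD11b+ cells were isolated from the mice on magnetic columns.

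MHC class II molecules display peptides from engulfed and degraded proteins to CD4+ T cells. In the I-A molecule the alpha chain H2-Aa pairs with the beta chain H2-Ab1, and H2-Eb1 is the beta chain of I-E. The invariant chain encoded by Cd74 fills and guides the empty dimer, and the DM heterodimer of H2-DMa and H2-DMb1 exchanges the remnant of the invariant chain for a peptide in late endosomes. Ciita, the class II transactivator, does not bind DNA itself but is recruited by factors sitting on the X and Y boxes of these promoters, and interferon gamma (IFNg) induces it. Microglia at rest in the adult brain are known for low surface levels of class II.

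H2-Aa, H2-Ab1, H2-Eb1, H2-DMa and H2-DMb1 lie on chromosome 17, in the MHC, whereas Cd74 and Ciita lie on other chromosomes. RefSeq promoter windows (GRCm38.p6) were at hand for 4 members, H2-Aa, H2-Eb1, H2-DMa and H2-DMb1, and the stretches that hold the X and Y boxes are shown because all members moved together in the IFNg cultures. Capitals mark a match to the X box pattern with at most 1 mismatch, and the Y box core ATTGG. The X box pattern is written here by the first run of capitals in the H2-DMb1 stretch, with any base allowed at its positions 3, 6, 7 and 10, so the match of H2-DMb1 itself is no result. The stretches are chr17:34153083-34153149 on the plus strand for H2-DMb1, chr17:34305762-34305827 on the plus strand for H2-Eb1 and chr17:34287852-34287931 on the minus strand for H2-Aa.
H2-DMb1: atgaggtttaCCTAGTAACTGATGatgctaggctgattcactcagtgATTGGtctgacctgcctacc
H2-Eb1: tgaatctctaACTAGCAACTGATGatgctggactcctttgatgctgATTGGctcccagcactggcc
H2-Aa: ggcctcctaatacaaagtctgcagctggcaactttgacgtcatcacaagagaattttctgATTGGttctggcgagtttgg
H2-DMb1 had ATTGG 23 bases after that run. H2-Eb1 matched with 1 mismatch and had ATTGG 22 bases further on. H2-Aa held ATTGG 48 bases before its start but not the X box pattern in this window, and of the 2 windows listed for H2-DMa 1 held ATTGG alone and the other neither. Over all 32851 windows, searched on both strands of the 250 bases before the start, 1.60% held the X box pattern with at most 1 mismatch, 33.8% held ATTGG and 0.0639% held the X box with at most 1 mismatch followed by ATTGG 15 to 30 bases on.

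The deposited values were counts per 1000000 reads (CPM). Sequencing depth, estimated from these values, was 1.00 to 38.2 M reads in the cultures (median 4.67 M), where M stands for 1000000. In the mice it was 2.36 to 7.78 M reads. CPM is not scaled by gene length, so levels are compared between conditions and not between genes. Differences are given on the log2(CPM + 1) scale, which understates the change of low genes, with their standard error (SE), and a member was called in the cultures when limma gave a Benjamini-Hochberg adjusted p under 0.05 over the 16935 genes tested and the absolute log2 fold change was at least 1. All 7 members passed the filter of more than 5 CPM in at least 4 cultures: H2-DMb1 and H2-DMa were above 5 CPM in 646 and 627 of 783 cultures, H2-Aa in 276, H2-Eb1 in 241, H2-Ab1 in 183, Cd74 in 107 and Ciita in 16. H2-DMb1 shares most of its sequence with H2-DMb2, and how reads were divided between this pair is uncertain. The header of the values names 3 source lots. The paper states that the conditions of its module analysis had replicates from different experimental days. Lot was not a term in any fit and wells were treated as units, so the p-values measure the spread between wells. In bulk RNA fewer cells of a type and less RNA per cell cannot be told apart.

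A feature of the cultures has to be stated before the results. Barcoded cDNA of many cultures was pooled before amplification, in 21 library pools, and 7 of these pools held cultures given IFNg. Among cultures not given IFNg, the median H2-Aa level was 8.31 CPM in the 7 pools that also held IFNg cultures (n = 284, 11 listed at 0) and 0 in the other 14 (n = 470, 287 listed at 0). The pool medians ran from 0.268 to 14.5 CPM in the former and from 0 to 0.949 CPM in the latter. Untreated cultures at 24 h had a median of 9.76 CPM (n = 11) in pools with IFNg cultures and 0.536 CPM (n = 29) in pools without, while the medians of H2-DMa in the same cultures were 20.4 and 19.4 CPM. The part of the pools in the results was not tested, and differences within pools, or without the pools that held IFNg, are given beside many of the calls.

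**Figure D1:**
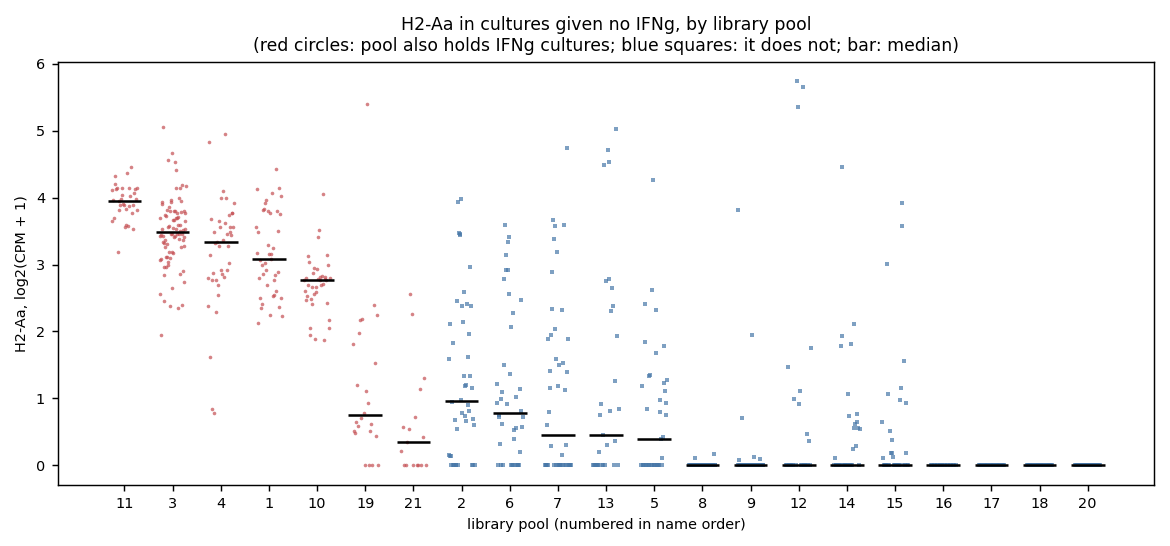
H2-Aa level (log2(CPM + 1)) in every culture given no IFNg, by library pool, with pools that also held IFNg cultures as red circles, the other pools as blue squares and the median as a bar. The 7 pools with IFNg cultures had medians of 0.268 to 14.5 CPM and the 14 others of 0 to 0.949 CPM.

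In untreated cultures at 24 h (n = 40) the peptide-binding chains were near the limit of detection, while the 2 DM chains were detected in every culture. H2-Aa was 2.90 CPM ± 3.93 (SD, n = 40), with a lowest, median and highest value of 0, 0.963 and 12.4. H2-Ab1 was 1.13 CPM ± 1.71 and H2-Eb1 3.48 CPM ± 5.89, each listed at 0 in 16 cultures. Cd74 was 0.917 CPM ± 1.06, and Ciita was listed at 0 in 30 of the 40. H2-DMa was 23.8 CPM ± 12.3 (9.71 to 59.2) and H2-DMb1 was 12.4 CPM ± 7.08 (3.94 to 28.96). The cells carried the pan-macrophage and microglial marker Csf1r at 2175 to 6886 CPM, whereas Sall1, which marks microglia in the brain, was at a median of 0.411 CPM.

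The first question was which stimuli moved these genes. Over 38 single stimuli at 24 h, 24 of 266 pairs of a member and a stimulus were called against untreated cultures, 22 higher and 2 lower, in 12 stimuli. IFNg alone accounted for 7 of the 24 calls. Of all genes tested, 0.337% to 20.1% were called in each of these 12 stimuli, and 1.48% over the other 26. Every stimulus was set against the same untreated cultures.

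IFNg (0.0001 ug/ul, 24 h, n = 9) raised all 7 members, where 8.06% of all genes tested were called. H2-Aa was 1147 CPM ± 257 (SD, n = 9), with a lowest, median and highest value of 916, 1029 and 1726. Its log2 fold change was 8.80 (SE 0.50, limma with Benjamini-Hochberg adjusted p 1.41e-55). No IFNg culture overlapped any untreated one for H2-Aa, H2-Ab1, H2-Eb1, H2-DMa, H2-DMb1 or Cd74. H2-Ab1 reached 283 CPM ± 103 (174 to 484) and H2-Eb1 671 CPM ± 160 (447 to 977), with log2 fold changes of 7.30 (SE 0.47) and 8.06 (SE 0.55). Cd74 was 130 CPM ± 23.2 (88.3 to 169) and rose by a log2 fold change of 6.27 (SE 0.33). The DM chains, which untreated cultures already expressed, rose by less: H2-DMa was 325 CPM ± 81.7, a log2 fold change of 3.82 (SE 0.48), and H2-DMb1 was 75.5 CPM ± 31.9, a log2 fold change of 2.60 (SE 0.38). Ciita was 9.27 CPM ± 10.96 (0 to 36.1), a log2 fold change of 2.62 (SE 0.21), and was listed at 0 in at least 1 IFNg culture, so its range overlapped that of untreated cultures.

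The size of the IFNg difference depended on the pool. Within each of the 3 pools that held both IFNg and untreated cultures, the log2 difference was 6.54 to 7.66 for H2-Aa, 6.04 to 6.90 for H2-Ab1 and 5.93 to 7.07 for H2-Eb1. It was 3.69 to 3.87 for H2-DMa, 1.44 to 2.59 for H2-DMb1, 5.18 to 6.39 for Cd74 and 1.15 to 4.21 for Ciita. All 7 calls held in every alternative setting and without any one IFNg culture.

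Other genes of the pathway were read from lists chosen by function. Of 9 tested genes of IFNg signalling, 5 rose and none fell at 24 h, with a median log2 fold change of 1.39 against −0.04 over all genes. Among them were the transcription factors Irf1 (460 CPM ± 98.3 against 23.002 ± 10.2 in untreated cultures), Irf2 and Irf8, and the feedback inhibitor Socs1 (971 ± 287 against 11.8 ± 11.3). Of the 7 tested genes of the factors on the X and Y boxes, Rfx5 alone rose, by a log2 fold change of 1.31 (SE 0.44). Of 3 other class II genes, H2-DMb2 rose (1.45, SE 0.30), while H2-Oa and H2-Ob had log2 fold changes of 0.02 and −0.12. Of 8 genes of class II trafficking and proteolysis, none rose and 2 fell, the lysosomal proteases Ctsl (−1.08) and Ctsd (−1.37). Of 5 genes of class II turnover and costimulation, Cd86 (3.92), a ligand for T cell costimulation, and Cd40 (2.04), a receptor through which T cells activate antigen-presenting cells, rose. Ifng itself was listed at 0 in every untreated and IFNg culture at 24 h.

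B cell markers were near 0 in the IFNg cultures. The genes Cd79a, Cd79b, Ighm and Rag1 were listed at 0 in all 9, and the summed level of the 6 B cell markers was 0 to 1.91 CPM. The summed level of 6 dendritic cell markers was 134 to 381 CPM against 14.9 to 703 CPM in untreated cultures, almost all of it Itgax, which activated macrophages also express. Among them Xcr1, a chemokine receptor of cross-presenting dendritic cells, was 5.21 to 31.9 CPM with IFNg and 0 to 4.05 CPM in untreated cultures. Xcr1 was also 6.13 to 51.3 CPM with the type I interferon IFNa and 6.28 to 48.4 CPM with IFNb. Flt3, a receptor for dendritic cell growth, was at most 0.841 CPM with IFNg and 3.55 CPM in untreated cultures. The 6 perivascular macrophage markers summed to 44.3 to 114 CPM with IFNg and 145 to 470 CPM without. The 8 microglial markers summed to 2404 to 4666 CPM with IFNg and 3551 to 9142 CPM without.

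**Figure D2:**
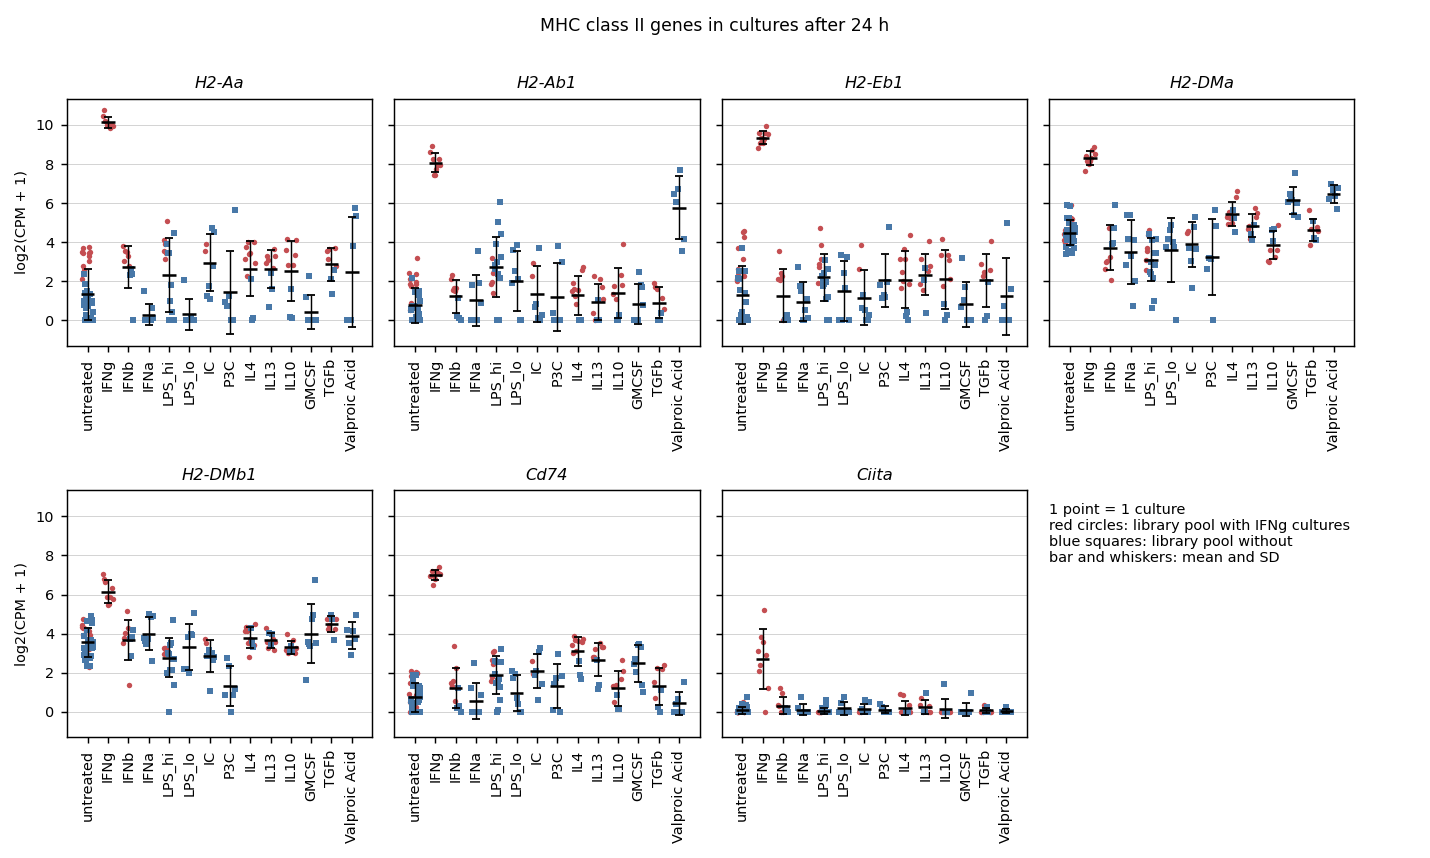
Level of each MHC class II gene (log2(CPM + 1)) after 24 h in untreated cultures and under 13 stimuli, 1 point a culture, red circles for library pools with IFNg cultures and blue squares for the others, with mean and SD. The 9 IFNg cultures stand above all untreated cultures for every gene but Ciita, and Valproic Acid cultures stand above them for H2-Ab1.

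The type I interferons did not match IFNg. With IFNa (0.0008 ug/ul, n = 8) no member was called, and H2-Aa was 0 to 1.83 CPM. With IFNb (0.0001 ug/ul, n = 10) H2-Aa alone was called, where 7.27% of genes were. H2-Aa with IFNb had a lowest, median and highest value of 0, 6.48 and 13.1 CPM, a range overlapping that of untreated cultures, and its log2 fold change was 1.39 (SE 0.47, limma with Benjamini-Hochberg adjusted p 0.036). The IFNb call was lost with the library pool (0.37) or the culture plate (0.88) as a term and without any one of replicates 1 to 6, and within 3 pools the difference was −0.21 to 1.49. Tested directly, IFNg exceeded IFNa for all 7 members, where 7.58% of genes were called, and IFNb for all 7, where 3.84% were. The log2 difference between IFNg and IFNb was 7.41 (SE 0.62) for H2-Aa, 6.83 (SE 0.58) for H2-Ab1, 8.08 (SE 0.69) for H2-Eb1, 5.79 (SE 0.41) for Cd74 and 2.39 (SE 0.26) for Ciita. Within pools that held both, it was 6.55 to 6.74 for H2-Aa and 1.04 to 3.59 for Ciita. The doses of IFNa and IFNg differed, and both comparisons used the same IFNg cultures.

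Valproic Acid (1000 uM, n = 6), an anticonvulsant that inhibits histone deacetylases, split the class II genes apart. H2-Ab1 and H2-DMa were called, where 5.92% of genes were. H2-Ab1 was 81.8 CPM ± 71.2, with a lowest, median and highest value of 10.8, 76.2 and 205, all above the highest untreated culture (8.02), and its log2 fold change was 5.00 (SE 0.56, limma with Benjamini-Hochberg adjusted p 2.46e-15). The 4 cultures on plate 5 held 64.7 to 205 CPM of H2-Ab1 and the 2 on plate 7 held 10.8 and 16.7 CPM. On plate 7, the only one that also held untreated cultures at 24 h (n = 4), H2-Ab1 was 0 to 1.01 CPM in the untreated cultures. H2-Aa went the other way between plates, at 39.7 and 52.5 CPM on plate 7 (untreated 0 to 0.879) but listed at 0 in 3 of 4 cultures on plate 5, and was not called (17.6 CPM ± 23.1, n = 6).

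H2-DMa with Valproic Acid was 90.5 CPM ± 26.9 (51.9 to 127), a log2 fold change of 1.97 (SE 0.56). This call was lost with the plate (1.14) or the pool (1.21) as a term. Neither Cd74 (0.4664 CPM ± 0.743) nor Ciita (listed at 0 in 5 of 6) was called, and Irf1 was 23.8 CPM ± 10.3 against 23.002 ± 10.2 in untreated cultures. H2-Ob, a chain of the DO heterodimer that inhibits DM, rose by a log2 fold change of 3.41 (SE 0.33), from 1.12 CPM ± 1.91 to 18.5 ± 8.63. The summed perivascular macrophage markers were 617 to 996 CPM with Valproic Acid against 145 to 470 CPM in untreated cultures. The summed 5 T cell markers had a median of 33.1 against 2.79 CPM, but only 1 of them had a mean above 1 CPM with Valproic Acid. There Cd3g and Trbc2 were listed at 0 in every culture and Cd3e had a mean of 0.402 CPM. The part of such cells in these differences was not tested.

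IL4 and IL13, cytokines of type 2 immunity, each had Cd74 alone called at 24 h, and the growth factor GMCSF had Cd74 and H2-DMa called. Cd74 with IL4 (0.00005 ug/ul, n = 11) was 8.57 CPM ± 3.88, with a lowest, median and highest value of 2.25, 9.77 and 13.5. Its log2 fold change was 2.36 (SE 0.31), where 2.75% of genes were called. Cd74 with IL13 (0.00005 ug/ul, n = 9) was 6.27 CPM ± 3.22 (1.21 to 10.3), a log2 fold change of 1.93 (SE 0.33), where 1.36% of genes were called. In pools without IFNg cultures these differences were 1.52 and 1.18 and were not called. With IL4 the summed dendritic cell markers had a median of 999 CPM against 288 in untreated cultures, monocyte markers of 130 against 37.9 and perivascular macrophage markers of 579 against 300, and with GMCSF the last were at 608. Of the dendritic cell markers, mean Itgax was 878 CPM with IL4 and 295 CPM in untreated cultures. Mean Zbtb46 (3.69 against 2.39 CPM), Flt3 (0.709 against 0.546) and Xcr1 (0.451 against 0.704) were low in both. The part of such cells in the Cd74 and H2-DMa values was not tested. GMCSF (0.000005 ug/ul, n = 8), for which 2.12% of genes were called, raised Cd74 to 5.60 CPM ± 3.66 (1.74, SE 0.35) and H2-DMa to 77.7 CPM ± 46.3 (1.65, SE 0.50). With GMCSF the H2-DMa values ran from 38.8 to 185 CPM and overlapped those of untreated cultures, and H2-Aa was listed at 0 in 6 of 8 cultures. The H2-DMa call was lost with a pseudocount of 0.1, with no filter and without the pools that held IFNg, where the log2 fold change was 1.69. No member was called with IL10 or TGFb at 24 h, where H2-DMa was 15.4 CPM ± 8.31 (n = 9) and 25.4 CPM ± 11.3 (n = 8).

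Ligands of Toll-like receptors and TNFa gave smaller and mixed differences. With LPS_hi (0.0001 ug/ul, n = 18), for which 16.2% of genes were called, H2-Ab1 and Cd74 rose and H2-DMa fell. H2-Ab1 had a lowest, median and highest value of 0, 4.92 and 66.4 CPM, a log2 fold change of 1.95 (SE 0.36), and Cd74 was 3.49 CPM ± 2.56 (1.15, SE 0.26). H2-DMa was 10.0 CPM ± 6.98 and fell by 1.37 on the log2 scale (SE 0.37). Each of these 3 ranges overlapped that of untreated cultures. In the same cultures Jak2 (2.31), Irf1 (1.27) and Socs1 (5.12) rose, Irf8 and Ifngr1 fell, and 4 of 8 trafficking and proteolysis genes fell (Ctsb, Ctsd, Ctse and Ifi30).

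With LPS_lo (0.00001 ug/ul, n = 7) no member was called, and LPS_hi and LPS_lo differed for none of the 7 members at 24 or at 72 h by limma, where 2.58% of genes were called. Of those 14 pairs, 4 had an unadjusted p under 0.05, and the rank-sum test called none, although group size let it pass at 72 h alone. P3C, a TLR2 ligand (0.001 ug/ul, n = 6), lowered H2-DMb1, where 20.1% of genes were called: it was 2.11 CPM ± 2.24 and fell by 2.22 on the log2 scale (SE 0.46). In the 1 pool that held both, H2-DMb1 was 0.836 to 5.67 CPM with P3C and 4.15 to 11.9 CPM in untreated cultures, overlapping ranges with a log2 difference of −0.93. IC, a TLR3 ligand (0.2 ug/ul, n = 8, 8.99% of genes called), raised H2-Aa by 1.62 (SE 0.52) and Cd74 by 1.36 (SE 0.35). The H2-Aa call with IC was lost without replicate 2, 6 or 8 (1.36 to 1.48), and the Cd74 call with the plate as a term (0.99). Within pools the differences with IC were 0.34 to 3.67 for H2-Aa and 0.85 to 1.84 for Cd74.

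TNFa (0.000004 ug/ul, n = 7, 2.98% of genes called) had H2-Aa at 11.9 CPM ± 7.60 (1.90, SE 0.55) and Cd74 at 5.09 CPM ± 3.57 (1.55, SE 0.37). The H2-Aa call was lost with the plate as a term (0.95) and with a pseudocount of 0.1, and within 3 pools the differences were 0.94 to 2.34 for H2-Aa and −0.74 to 2.53 for Cd74. PGE2 (0.001 ug/ul, n = 8, 0.337% of genes called) and dopamine (100 uM, n = 9, 1.35% of genes called) had H2-Aa at 12.5 CPM ± 7.68 and 11.5 CPM ± 7.81. Their log2 fold changes of 2.25 and 2.03 fell short of a call with the pool (0.52 and 0.28) or the plate (1.32 and 0.99) as a term, and within pools were 0.39 to 0.50 and −0.20 to 0.80. In the other 26 stimuli at 24 h no member was called by limma, where 1.48% of genes were. Of their 182 pairs, 28 had an unadjusted p under 0.05 and the rank-sum test called none.

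**Figure D3:**
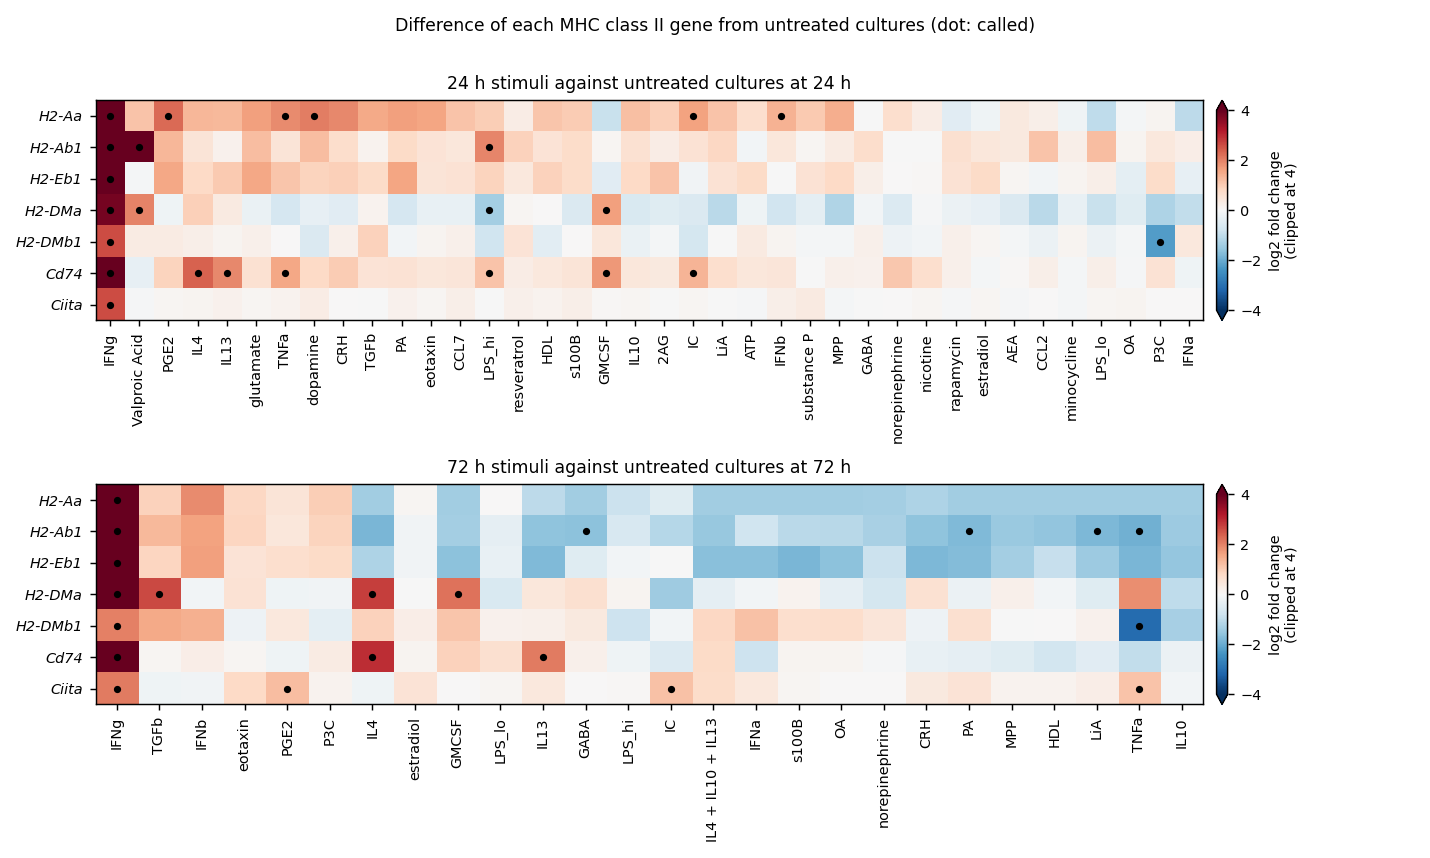
Log2 fold change of each MHC class II gene against untreated cultures of the same time for all single stimuli and 1 mix of interleukins, on a colour scale clipped at 4, with a dot where the gene was called. IFNg is the only column with all 7 genes called at 24 h and at 72 h, and no other column has more than 3 genes called.

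At 4 h the panel held no untreated culture, so stimulus and time cannot be told apart there, and cultures were set against untreated ones at 24 h. With LPS_hi at 4 h (n = 7), for which 29.3% of genes were called, Cd74 was 6.81 CPM ± 6.53 (1.80, SE 0.37) and H2-DMb1 was 3.19 CPM ± 2.89 (−1.89, SE 0.43). In the 1 pool with both, these differences were 2.54 for Cd74 and −0.81 for H2-DMb1. H2-Aa was at most 0.437 CPM in these 7 cultures. In the other 5 stimuli at 4 h no member was called by limma, where 2.7% of genes were, and 4 of 35 pairs had an unadjusted p under 0.05 with none called by the rank-sum test.

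At 72 h, 20 of 182 pairs were called against untreated cultures (n = 25), 15 higher and 5 lower, in 11 of 26 stimuli. Of all genes tested, 1.08% to 27.7% were called in each of these 11 stimuli, and 4.8% over the other 15. IFNg (n = 6) again raised all 7 members, where 12.8% of genes were called, and the spread between cultures was far wider than at 24 h. H2-Aa held 7205, 9114 and 1462 CPM in the 3 cultures of plate 6 and 713, 424 and 329 CPM in the 3 of plate 10. Untreated cultures at 72 h held at most 16.6 CPM of H2-Aa, so neither plate overlapped them. The log2 fold change was 9.13 (SE 0.61) for H2-Aa, 8.41 (SE 0.58) for H2-Ab1, 9.24 (SE 0.68) for H2-Eb1 and 6.85 (SE 0.41) for Cd74. H2-DMa ran from 6.46 to 856 CPM (3.97, SE 0.59), H2-DMb1 from 10.5 to 238 CPM (2.01, SE 0.47) and Ciita from 0 to 21.3 CPM (2.07, SE 0.25), and each of these 3 overlapped untreated cultures. The H2-DMb1 call was lost in a fit of these groups alone.

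On plate 10, H2-DMa in IFNg cultures (6.46 to 149 CPM) overlapped the untreated cultures (0 to 38.7 CPM), with a log2 difference of 2.27, and on plate 6 it did not (5.46). H2-DMb1 (2.48 on plate 6 and 0.75 on plate 10) and Ciita (1.81 and 1.92) overlapped untreated cultures on both plates. The peptide-binding chains and Cd74 were apart on both plates, with log2 differences of 8.90 and 8.47 for H2-Aa and 6.34 and 6.98 for Cd74. Of the pathway genes, Rfx5 (1.85), Irf1 (4.70), Irf8 (1.37), Socs1 (5.60), Cd86 (3.15), Cd40 (2.62) and the protease Ctss (1.34), which trims the invariant chain, rose, and Nfya, Ctsl and Ctsd fell. The difference between 72 and 24 h in the IFNg response was not called for any member, with log2 values from −0.59 to 1.18.

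IFNg given with LPS_lo or TNFa for 72 h was set against IFNg alone. The labels give the dose of LPS_lo or TNFa in these mixes and not that of IFNg. With LPS_lo and IFNg together (n = 7), the peptide-binding chains and Cd74 were far below their level with IFNg alone. H2-Aa had a lowest, median and highest value of 0.723, 52.7 and 92.5 CPM, all below the lowest IFNg culture (329). The mix was called lower than IFNg for 5 of 7 members, where 7.32% of genes were called: H2-Aa fell by 5.75 on the log2 scale (SE 0.75), H2-Ab1 by 6.25 (SE 0.71), H2-Eb1 by 6.34 (SE 0.83), Cd74 by 5.67 (SE 0.50) and Ciita by 2.12 (SE 0.31). Ciita was listed at 0 in 6 of the 7 mix cultures.

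The difference was as large within each plate. On plate 6 the log2 difference of the mix from IFNg was −6.01 for H2-Aa, −6.01 for H2-Ab1, −6.55 for H2-Eb1 and −5.55 for Cd74, and on plate 10 it was −5.94, −6.90, −6.56 and −6.06. None of these ranges overlapped within a plate. On plate 10 the mix and IFNg were in different library pools. H2-DMa was 56.9 CPM ± 23.9 with the mix and was not called against IFNg, with a log2 difference of −3.28 on plate 6 and 1.28 on plate 10. Against LPS_lo alone (n = 11) the mix was called higher for 4 of 7 members, where 2.5% of genes were called: H2-Aa by 3.37 (SE 0.65), H2-Ab1 by 2.51 (SE 0.61), H2-Eb1 by 3.19 (SE 0.72) and H2-DMa by 3.56 (SE 0.62). On plate 10 the mix overlapped LPS_lo for H2-Aa, H2-Ab1 and H2-Eb1.

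The IFNg signalling genes did not follow the class II genes in that mix. Against IFNg alone none of the 9 rose and the receptor chain Ifngr1 alone fell (−1.12, SE 0.38). Irf1 was 610 CPM ± 75.8 with the mix and 521 ± 47.6 with IFNg, not called. Against LPS_lo alone Irf1 (3.33), Irf8 (1.96) and Socs1 (5.06) rose. Cd40 was higher with the mix than with IFNg (2.65, SE 0.57), at 100 CPM ± 20.4 against 21.6 ± 13.2, H2-Oa was also higher (1.27) and Creb1 lower (−1.41). Rfx5 was 1.29 CPM ± 0.856 with the mix and 13.4 ± 11.3 with IFNg, not called.

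With TNFa and IFNg together (n = 8) the members stood between. H2-Aa was 645 CPM ± 480, with a lowest, median and highest value of 8.43, 511 and 1403. The culture at 8.43 CPM, replicate 8, stood apart from the others (252 or more) and was also the lowest for H2-Ab1 (5.40), H2-Eb1 (0.432) and Cd74 (6.27). Against IFNg, where 5.48% of genes were called, H2-Ab1 fell by 2.78 on the log2 scale (SE 0.69), H2-Eb1 by 3.24 (SE 0.81), Cd74 by 1.49 (SE 0.49) and Ciita by 1.10 (SE 0.30). Without replicate 8, H2-Ab1 (−2.09) and Ciita (−1.15) were called, and H2-Eb1 (−2.20) and Cd74 (−0.99) were not. All 4 calls were lost with a pseudocount of 0.1 and in a fit of these groups alone. H2-Aa on plate 6 was 370 to 1403 CPM with the mix and 1462 to 9114 CPM with IFNg, whereas on plate 10 the mix (8.43 to 641) overlapped IFNg (329 to 713). Of the mix cultures, replicate 8 alone was in a library pool that held cultures with IFNg alone. For the others, pool and stimulus cannot be told apart within a plate.

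The cultures with TNFa alone at 72 h (n = 3) were all in 1 pool, which held no culture given IFNg. H2-Aa, H2-Ab1, H2-Eb1 and Cd74 were listed at 0 in each of them, so no fold is given for these genes. The mix was called higher than TNFa for these 4, for H2-DMb1 (4.37, SE 0.71) and for H2-DMa (2.84, SE 0.87), where 27.3% of genes were called. The H2-DMa call was lost without TNFa replicate 1 (1.01). In the other 23 comparisons of a mix with its base condition no member was called by limma, where 1.78% of genes were, and 19 of 161 pairs had an unadjusted p under 0.05, 1 of them also an adjusted p under 0.05. The rank-sum test called none, but group size let it pass in only 1 of these comparisons.

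**Figure D4:**
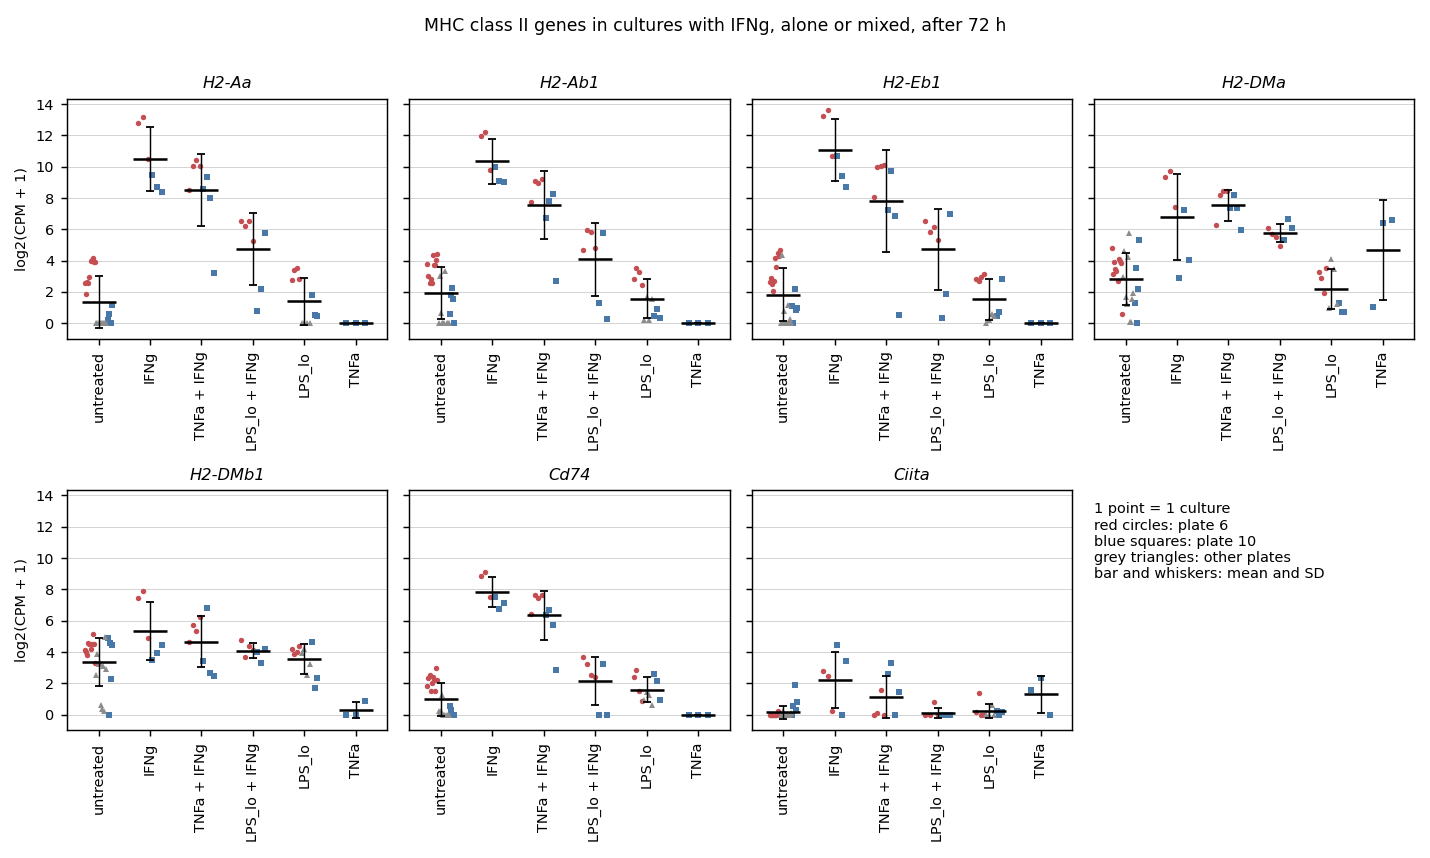
Level of each MHC class II gene (log2(CPM + 1)) after 72 h in untreated cultures and with IFNg, TNFa + IFNg, LPS_lo + IFNg, LPS_lo and TNFa, 1 point a culture, red circles for plate 6, blue squares for plate 10 and grey triangles for other plates, with mean and SD. H2-Aa, H2-Ab1, H2-Eb1 and Cd74 with LPS_lo + IFNg lie below those with IFNg on both plates, and H2-DMa does so on plate 6 alone.

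Among the other stimuli at 72 h, IL4 and IL13 again had Cd74 higher. Cd74 with IL4 was 10.9, 15.1 and 17.98 CPM (n = 3), all above the highest untreated culture (6.996), a log2 fold change of 2.97 (SE 0.55), where 3.57% of genes were called. With IL13 (n = 6, 3.58% of genes called) Cd74 was 10.5 CPM ± 6.67, a log2 fold change of 2.09 (SE 0.41), although 1 culture was listed at 0. H2-Aa was listed at 0 in all 3 IL4 cultures and in 4 of 6 with IL13. The IL4 cultures were on plate 5, where the 4 untreated cultures at 72 h were listed at 0 for H2-Aa too.

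H2-DMa was called higher at 72 h with IL4 (49.9 CPM ± 19.7, 2.77, SE 0.79), GMCSF (44.6 CPM ± 36.7, n = 7, 2.16, SE 0.55, 4.55% of genes called) and TGFb (43.3 CPM ± 8.10, n = 4, 2.63, SE 0.69, 1.13% of genes called). The IL4 call was lost without any one of its 3 cultures (2.51 to 3.11) and the TGFb call without any one of its 4 (2.54 to 2.76). The TGFb call was also lost with the plate (2.04) or the pool (1.97) as a term, although its 4 cultures, all in 1 pool, were 32.7 to 51.9 CPM against 7.99 to 26.4 CPM in the untreated cultures there (1.72). With GMCSF the H2-DMa values (6.08 to 91.7 CPM) overlapped those of untreated cultures (0 to 54.4). The fall of the DM partner was seen with TNFa (n = 3, 27.7% of genes called), where H2-DMb1 was listed at 0 in 2 cultures and was 0.848 CPM in the other, 3.07 lower on the log2 scale (SE 0.64), while H2-DMa held 1.01, 85.3 and 95.8 CPM.

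Calls of H2-Ab1 and Ciita at 72 h rested on low values. H2-Ab1 was called lower with GABA (−1.64, 6.22% of genes called), LiA (−1.81, 1.08%), PA (−1.77, 3.35%) and TNFa, where it was listed at 0 throughout. Its levels there were at most 1.55 CPM, and all 4 calls were lost with plate or pool as a term and without the pools that held IFNg cultures. Untreated cultures at 72 h held a median of 3.74 CPM of H2-Ab1 (0 to 20.7). Ciita was called higher with PGE2 (1.24, n = 8, 6.51% of genes called), IC (1.18, n = 6, 8.77%) and TNFa (1.14), with medians of 0.904, 2.36 and 2.02 CPM. The Ciita calls with IC and TNFa were lost with the plate (0.87 and 0.54) or the pool (0.70 and 0.24) as a term and that with PGE2 with the pool (0.93). In the 1 pool that held both, the difference was 0 with IC, where all values were 0, and 0.39 with PGE2. The Ciita call with TNFa was also lost without replicate 1 (1.00) or 2 (0.63). In the other 15 stimuli at 72 h no member was called by limma, where 4.8% of genes were. Of their 105 pairs, 34 had an unadjusted p under 0.05, 2 of them also an adjusted p under 0.05, and the rank-sum test called none, where group size let it pass in 13 of the 15.

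Between untreated cultures at 72 and 24 h 2 members were called, where 7.33% of genes were. The 2 times were on different plates, so time and plate cannot be told apart. H2-DMa was 23.8 CPM ± 12.3 (n = 40) at 24 h and 11.3 ± 13.1 (n = 25) at 72 h, 1.67 lower on the log2 scale (SE 0.33), and its call was lost with the plate or the pool as a term. H2-Ab1 was 1.15 higher at 72 h (SE 0.32), but with the plate or pool as a term the difference turned to −1.82 and −1.92. The response to LPS_hi differed between 72 and 24 h for H2-Ab1 (−2.59, SE 0.56), H2-Aa (−1.84, SE 0.60) and Cd74 (−1.33, SE 0.40), where 5.11% of genes were called, and of these H2-Ab1 alone kept its call in every setting. H2-Ab1 with LPS_hi had a median of 4.92 CPM at 24 h and 0.270 CPM at 72 h (n = 13). The IC response differed for Cd74 (−1.90, SE 0.54) and Ciita (1.11, SE 0.33), where 4.23% of genes were called. Both of these calls were lost with either other pseudocount and with the plate as a term. The Cd74 call was also lost without the pools that held IFNg, and the Ciita call with the pool as a term. In the other 10 comparisons of responses over time no member was called by limma, where 2.2% of genes were, and 12 of 70 pairs had an unadjusted p under 0.05. The rank-sum test was not run on these.

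In order of mean level over the 97 conditions, cultures with IFNg took the first places for the peptide-binding chains. For H2-Aa the order was 72 h IFNg, 24 h IFNg (1147), 72 h TNFa + IFNg (645), 72 h LPS_lo + IFNg (50.4), 24 h Valproic Acid (17.6) and 24 h PGE2 (12.5 CPM). Each of these conditions overlapped its neighbour in range. For H2-Ab1 24 h Valproic Acid stood ahead of 72 h LPS_lo + IFNg (81.8 and 32.1 CPM), and for H2-DMa it stood ahead of 24 h GMCSF (90.5 and 77.7 CPM).

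Across the 97 condition means, which share pools and controls, H2-Aa and H2-Eb1 had a Pearson r of 0.90, H2-Aa and H2-Ab1 of 0.84 and H2-Aa and Cd74 of 0.72. Over the 93 conditions without IFNg these were 0.67, 0.56 and 0.16. Cd74 and Ciita had 0.49 over all conditions and −0.25 without IFNg. The genes whose profile was most like the mean profile of the members other than Ciita were Clec9a (0.86), Tlr12 (0.86), Ly6f (0.82), Rnase6 (0.80), Il12rb1 (0.80), Slamf8 (0.78), Ly6a (0.77), Gm5970 (0.75), Mapk13 (0.71) and Slc4a11 (0.71). For Ciita they were Tlr12 (0.66), RP23-318M11.2 (0.65), Gm37404 (0.64), Usp29 (0.63) and Gm10720 (0.63). These are descriptions over 97 means, dominated by the conditions with IFNg.

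In microglia taken from mice the peptide-binding chains were abundant without any stimulus. In PBS mice H2-Ab1 was 332 to 495 CPM and H2-Eb1 1361 to 1569 CPM, while Cd74 was 30.2 to 40.4 CPM and Ciita 0.275 to 2.32 CPM. The 4 PBS mice held 934, 979, 929 and 892 CPM of H2-Aa, where untreated cultures at 24 h held 0 to 12.4 CPM. The tables of mice and cultures were normalised separately, so these levels are set side by side without a test. The mouse preparations held Sall1 at 232 to 335 CPM and Tmem119 at 4245 to 4981 CPM in the PBS group. They also held Ighm, an immunoglobulin heavy chain of B cells, at 248 to 346 CPM. The B cell gene Cd79b was at 5.36 to 12.8 CPM, while the B cell gene Cd79a was under 1 CPM in every PBS mouse. The 6 perivascular macrophage markers summed to 66.1 to 125 CPM in the PBS mice. The part of such cells in the class II values was not tested.

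LPS in mice (2 mg/kg, 4 h) moved many genes but called no class II member among the 6 tested, where 22.4% of genes were called. Ciita did not pass the filter in either mouse experiment. Its level was 0.178 CPM ± 0.217 with LPS and 1.28 ± 0.916 with PBS, a log2 difference of −0.88 (exact permutation test over mice p = 0.0571). H2-Aa in the 4 LPS mice was 521, 1300, 775 and 640 CPM, on both sides of the PBS values. The log2 difference was −0.29 (SE 0.21, exact permutation test over mice p = 0.343), and with 4 against 4 the smallest possible p is 0.0286. H2-Ab1 (−0.29), H2-Eb1 (−0.38), H2-DMa (−0.05) and H2-DMb1 (−0.26) had permutation p-values of 0.2 to 0.857. Cd74 was 52.0 CPM ± 13.5 with LPS and 36.2 ± 4.77 with PBS (n = 4 each), a log2 difference of 0.49 (exact permutation p = 0.0857), and was above the PBS median in all 4 LPS mice. By limma 1 of the 6 members, Cd74, had an unadjusted p under 0.05, and the rank-sum test, which could not pass at this group size, called none.

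The count depended on single mice. Without LPS replicate 2, the mouse with 1300 CPM, H2-Aa (−0.55) and H2-Eb1 (−0.61) were called lower, and without LPS replicate 4 Cd74 (0.63) was called higher. The summed B cell markers were 333 CPM in LPS replicate 1 and 96.2 to 110 CPM in the other 3, against 255 to 356 CPM with PBS, and the dendritic cell markers were 102 to 130 CPM against 57.4 to 84.6. Their part in the class II values was not tested. In the same mice Irf1 (2.60), Socs1 (2.17), the lysosomal thiol reductase Ifi30 (1.78), Cd83 (3.69), which protects class II from turnover, and Cd40 (4.21) rose, and 6 of 9 IFNg signalling genes were called higher with a median of 0.45 against −0.19 over all genes.

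In old mice (22 against 2 months) the 6 tested members had positive differences, and 2 were called, where 3.24% of genes were. H2-Aa in 22-month mice had a lowest, median and highest value of 769, 1392 and 2088 CPM (n = 13), and in 2-month mice of 509, 900 and 1401 (n = 11). The log2 difference was 0.69 (SE 0.19, limma with Benjamini-Hochberg adjusted p 0.048, permutation p = 0.00344), and 11 of 13 old mice were above the young median. Cd74 was 109 CPM ± 45.4 against 61.0 ± 21.3, a log2 difference of 0.78 (SE 0.22, adjusted p 0.046), again with 11 of 13 above. H2-Ab1 was 1077 CPM ± 537 against 568 ± 238 (0.82) and H2-Eb1 was 2126 ± 1154 against 1130 ± 510 (0.80), with adjusted p-values of 0.16 and 0.23. H2-DMa and H2-DMb1 had differences of 0.32 and 0.35, and Ciita was 3.55 CPM ± 3.42 and 3.68 ± 4.38. The ranges of old and young overlapped for every member.

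Batch, by the date given for each mouse in the header of the values, moved with the levels of both ages. The row is named Date only, so library preparation, cell isolation and mouse cohort cannot be told apart. In batch 1 (4 against 4 mice) the log2 differences of the 6 tested members were 0.22 to 0.50, with exact permutation p-values of 0.0857 to 0.229 where the smallest possible is 0.0286. In batch 2 (9 against 7 mice) the difference was 0.72 for H2-Aa (exact permutation p = 0.00411), 0.99 for H2-Ab1 (0.000437), 0.91 for H2-Eb1 (0.00149), 0.26 for H2-DMa (0.0299), 0.36 for H2-DMb1 (0.0180) and 0.88 for Cd74 (0.00236). With the batch as a term all 6 members were called. The share of all genes called in that fit is not reported here, so this count has no background beside it. Ciita was 5.68 to 11.5 CPM in the 8 mice of batch 1 and 0 to 3.23 CPM in the 16 of batch 2, at both ages.

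Markers of other cells moved with age too. From 2 to 22 months the median summed level of dendritic cell markers went from 71.6 to 133 CPM, of monocyte markers from 114 to 246, of T cell markers from 12.01 to 42.3 and of neutrophil markers from 521 to 1029, while B cell markers were at 335 and 323 CPM. The part of these cells in the class II values was not tested.

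**Figure D5:**
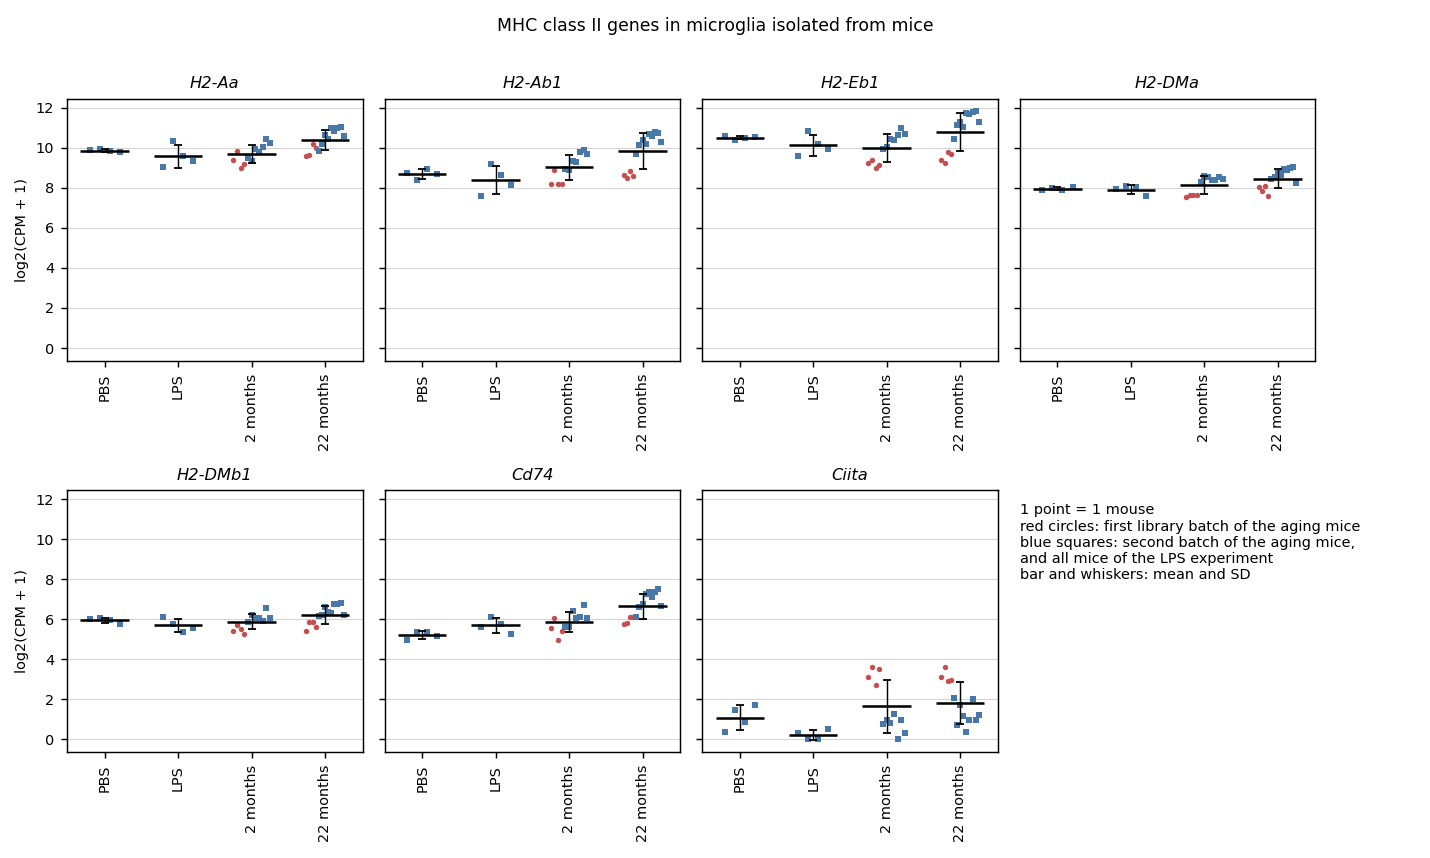
Level of each MHC class II gene (log2(CPM + 1)) in microglia from PBS, LPS, 2-month and 22-month mice, 1 point a mouse, with mean and SD. Red circles mark batch 1 of the aging mice, by date, and blue squares batch 2 and the LPS experiment. H2-Aa is near 900 CPM in all PBS mice and spread from 521 to 1300 CPM in LPS mice, and Ciita is higher in batch 1 at both ages.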

How the data were processed

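RNA of 784 microglial cultures and of microglia from 32 mice was sequenced from its 3′ end after linear amplification of pooled, barcoded cDNA. The authors quantified reads with Salmon 0.7.1 and deposited CPM, counts per 1000000 mapped reads, in 1 table for the cultures and 1 for the mice, and the labels name the genome build mm8. CPM fixes each total, so a large change in abundant genes shifts the others. Read counts were not used here, so depth was estimated from the deposited values, taking the commonest low nonzero value of a sample as 1 read. 3′ reads do not separate near-identical paralogs.

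The labels gave the groups, also for the mice, which the header of their table all names vehicle. The culture without a group entered no comparison. Values were tested as log2(CPM + 1) with limma 3.58.1 in R 4.3.3 (trend, Benjamini-Hochberg adjustment) for genes above 5 CPM in at least 4 cultures or LPS experiment mice, or 11 aging mice. All 783 grouped cultures shared 1 fit with 114 contrasts. A call needed an adjusted p under 0.05 and, in cultures, also a log2 fold change of 1 or more in either direction. Permutation tests (two-sided, 100000 draws, exact where groups held under 10) and summaries used Python 3.11.15, numpy 2.4.6, scipy 1.17.1 and pandas 2.3.3, and figures used matplotlib 3.10.9. The fit was tested on simulated data.

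The 7 members, the 5 pathway lists (other class II genes, class II transcription, IFNg signalling, class II trafficking and proteolysis, class II turnover and costimulation), the 10 marker lists and the tests were chosen with earlier results of these data known. Named genes were the members, the listed genes, and the 10 and 5 genes with the highest Pearson r to the members' mean profile and to Ciita over condition means. Some listed genes are not reported here. Conditions were named where a member was called, besides 12 stimuli named in any case. Alternatives were other pseudocounts, no filter, median-ratio rescaling, plate or pool as a term, separate fits, a rank-sum test and leaving out single replicates. Replicates were left out in turn for 88 cultures, those of groups of at most 5 and of IC, P3C, IFNa, IFNb and IFNg at 24 h. Each mouse of the LPS experiment was left out too. The restriction to pools without IFNg cultures, and leaving out 1 TNFa + IFNg culture at 72 h, were chosen after seeing the data.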

Additional observations from a re-analysis of the deposited data

Results flagged for a closer look

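Of 65 sets of values, 12 had 1 culture far from the others by Dixon's criterion. Each set was 1 member in 1 group of 4 to 10 samples, taken for called members and for all members in the PBS and LPS mice. Chance gives about 1 in 20 for normal values, a rate that does not hold for sets listed at or near 0. Replicate 8 of the 8 TNFa + IFNg cultures at 72 h was the lowest for 4 members at once, at 8.43 CPM of H2-Aa (the others 252 to 1403), 5.40 of H2-Ab1 (103 to 598), 0.432 of H2-Eb1 (116 to 1106) and 6.27 of Cd74 (51.4 to 202). In the cultures at 24 h, replicate 10 of IFNb was listed at 0 for H2-Aa (the others 3.95 to 13.1), replicate 7 of TNFa at 0 for H2-Aa (5.14 to 22.2) and replicate 2 of TNFa at 0 for Cd74 (3.27 to 10.3). At 72 h, replicate 4 of IL13 was listed at 0 for Cd74 (5.98 to 17.3). The remaining cases were single low values above groups listed at or near 0, namely H2-Ab1 at 1.55 CPM in GABA replicate 1, 0.922 in LiA replicate 8 and 1.16 in PA replicate 1, and Ciita at 0.746 in LPS_lo + IFNg replicate 3, all at 72 h.

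The response to LPS_hi differed between 72 and 24 h, by an interaction term, for H2-Ab1 (−2.59), H2-Aa (−1.84) and Cd74 (−1.33), and the response to IC differed for Cd74 (−1.90) and Ciita (1.11), on the log2 scale.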

How the results depend on the processing

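Of 88 called pairs of a member and a comparison, 13 kept their call in every alternative run for them, and 11 of these involve IFNg. For 39 of the 88 the rank-sum test could not pass at the group size. With a pseudocount of 0.1 71 of 88 calls held, of 5 63 of 88, with no filter 79 of 88, with median-ratio rescaling 87 of 88, with the plate as a term 67 of 86, with the pool 66 of 86 and with separate fits 65 of 78. In pools without IFNg cultures 24 of 36 held. Leaving out 1 replicate, in the groups where this was run, lost 24 of 410 calls. The direction turned once, for H2-Ab1 between untreated cultures at 72 and 24 h (−1.82 with plate, −1.92 with pool).

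At 24 h the 24 calls became 15 with a pseudocount of 5 and 13 by the rank-sum test. At 4 h the 2 calls became 5 with a pseudocount of 0.1, 1 with 5, 4 in a separate fit and 0 by rank sums. At 72 h the 20 calls became 13 with a pseudocount of 5, 9 in separate fits and 4 by rank sums. The 19 calls of mixes and the 14 of IFNg against IFNa or IFNb both became 0 by rank sums. Group size fixed this in advance, because none of the comparisons with these calls could pass, so it says nothing about them. Over all comparisons with a rank-sum test, 34 of 102 could not pass for their group size. In pools without IFNg, 3 pairs of mixes were called that had not been (0 over the same 17 comparisons). The 7 calls of change over time became 4 with a pseudocount of 5, 4 with plate, 4 with pool, 3 in pools without IFNg and, in the 1 comparison with a rank-sum test, 0. In LPS mice the 0 calls became 1 (Cd74) with median-ratio rescaling. In aging mice the 2 calls became 0 with a minimum log2 fold change of 1, without the filter, in batch 1 alone and by rank sums. They became 6 with batch as a term and 4 in batch 2 alone, where the shares of all genes called are not reported here. The cause was not tested.

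Single replicates were left out for some groups only. Calls of Valproic Acid, IL4 and GMCSF at 24 h, of IFNg against untreated at 72 h and of the aging mice were not put to this. In the fits run, calls ranged from 23 to 25 at 24 h, 2 to 3 at 4 h and 18 to 20 at 72 h. The range was 17 to 20 for mixes and 14 to 14 for IFNg against IFNa or IFNb. It was 7 to 8 over time and 0 to 2 in LPS mice. No paired analysis was possible because the sample titles number libraries without tying them across groups, so replicate numbers follow accession order. Ciita was the member least often above 5 CPM, in 16 of 783 cultures, and the part of sequencing depth in this was not tested.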

Other observations

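The culture that the labels put in no group held H2-Aa at 0.457 CPM, H2-Eb1 at 1.14, H2-DMb1 at 10.7 and Ciita at 0.229, and listed H2-Ab1, H2-DMa and Cd74 at 0.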
